A study of Arabidopsis thaliana with 4 samples.

Results

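Histone genes were followed in unopened floral buds of the Arabidopsis thaliana cdm1 mutant and of wild type plants, both of the Col-0 accession. The set was fixed by locus and held 48 genes for the histones H1, H2A, H2B, H3 and H4. A gene counted as measured where the platform annotation gave it a probe set of its own, which was so for 16 of the 48, among 13286 measured genes in the series. They were 9 of 11 H2B genes, 4 of 13 H3 genes and 3 of 3 H1 genes. A further 16 loci, namely the 5 genes of H3.1, the 3 of H3.3 and the 8 of H4, were covered only by probe sets that the annotation assigns to all genes of that form together. For the other 16, which include all 13 H2A genes with the H2A.X, H2A.W and H2A.Z variants, as well as HTB6, HTB9 and HTR11, no probe set was listed, and they were not analysed here.

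The series holds 4 Affymetrix arrays, 2 of cdm1 and 2 of wild type, described as biological replicates, with 500 ng of total RNA per sample from plants at day 24 after germination. The labels do not give the cdm1 allele, or whether a replicate pools plants. They mention moderate drought for some plants without assigning it to any sample. Values are RMA values on a log2 scale, so a difference of 1 is a 2-fold change.

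Histones package DNA into nucleosomes, with H2A, H2B, H3 and H4 forming the core particle and H1 binding the linker DNA between particles. In plants the bulk of the core histones, including H3.1 and H4, is made in S phase and is deposited behind the replication fork, so their transcripts are widely used as a sign of dividing cells. Variant forms are also made outside S phase: H3.3 replaces H3.1 at transcribed genes, and CENH3 marks the centromere. Pollen adds forms of its own, such as the male gamete histone HTR10. Floral buds hold dividing organ primordia, meiotic cells, anther nurse tissue and growing sepals in unknown shares, and in such bulk samples fewer cells of a type and less RNA per cell cannot be told apart.

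Replicate arrays correlated at r = 0.998 for wild type and 0.996 for cdm1 over the probe sets (a description, since probe sets are no replicates), and arrays of different genotype at 0.990 to 0.994. Of 22746 probe sets, 303 (1.33%) had a limma adjusted p under 0.05, but that count was 0 with either wild type array left out and 1040 without cdm1 replicate 2. None of the 14 listed floral organ identity genes had a probe set of its own. Markers of green tissue and meristem are given further below, and the tissue was checked here through the anther. There the 3 measured of 10 tapetum markers, among them the lipid transfer protein gene A9 and the transcription factor gene AMS, read between 10.1 and 12.4 on the 4 arrays.

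None of the 16 measured histone genes reached this threshold, against 1.33% of probe sets in general. At an unadjusted p of 0.05 there were 3, HTB5 (higher in cdm1), H1.2 and HTR6 (both lower), where 15.3% of all probe sets did. The shifts were small: 15 of the 16 had a 95% interval that lay within a 2-fold change in either direction, and for 13 it lay within 1.5-fold. The genes of the S phase H2B group, a grouping taken from general knowledge, mostly read higher in cdm1, with a median log2 fold change of 0.17. The 5 variant genes had a median of 0.057 and the 3 linker genes one of -0.24, beside 0.0036 over all probe sets. The variant median was unstable: it ran from 0.011 to 0.11 with 1 array left out and was -0.0092 with the shared H3.3 probe sets added, a setting chosen after seeing the data, while the mean of the 5 genes was -0.056. These medians are descriptions and were not tested against each other.

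**Figure D1:**
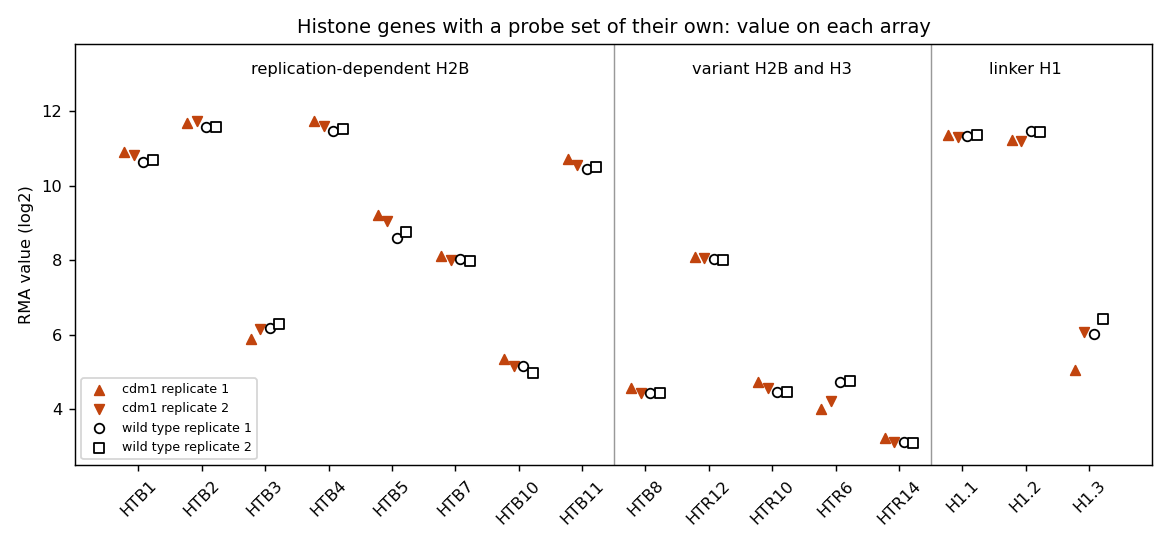
RMA values (log2, y axis) of the 16 histone genes with a probe set of their own (x axis) on the 2 cdm1 arrays (filled triangles) and the 2 wild type arrays (open symbols). Both filled symbols lie above both open ones in 8 genes (HTB1, HTB2, HTB4, HTB5, HTB10, HTB11, HTR10 and HTR12) and below in 3 (HTB3, HTR6 and H1.2), against 23.7% and 23.6% of all probe sets.

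H2B is the core histone with the most genes measured. HTB1, HTB2, HTB4 and HTB11 encode closely related bulk H2B proteins. HTB1 (AT1G07790) read 10.9 and 10.8 on the cdm1 arrays and 10.6 and 10.7 on the wild type arrays, a log2 difference of 0.20 (SE 0.094, adjusted p = 0.389 by limma). HTB2 (AT5G22880) read 11.7 on both cdm1 arrays and 11.6 on both wild type arrays (log2 fold change 0.13, SE 0.090). HTB4 (AT5G59910) read 11.7 and 11.6 in cdm1 against 11.5 on both wild type arrays (0.17, SE 0.098). In each of these genes both cdm1 arrays lay above both wild type arrays, as in 23.7% of all probe sets. The gap was within a small fraction of a log2 unit. HTB11 (AT3G46030) was similar, at 10.7 and 10.6 in cdm1 against 10.4 and 10.5 (0.17, SE 0.10). The largest increase that any of the 4 intervals (95%) allowed was 1.34-fold. Near-identical H2B genes can share hybridisation, so the 4 are not independent measurements.

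HTB5 (AT2G37470) had the largest difference among the H2B genes. It read 9.22 and 9.05 in cdm1 and 8.60 and 8.77 in wild type, a log2 difference of 0.44 (1.36-fold, SE 0.11, 95% interval 0.17 to 0.72, adjusted p = 0.156 by limma). Both cdm1 arrays lay above both wild type arrays by more than the spread within either group. The adjusted p ranged from 0.0735 to 0.713 over all settings tried.

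The other H2B genes were less even. HTB7 (AT3G09480) read 8.11 and 8.01 in cdm1 against 8.02 and 7.98 in wild type, and the groups overlapped (0.056, SE 0.094). HTB10 (AT5G02570) read 5.36 and 5.17 against 5.17 and 4.98, near the low end of the arrays (0.19, SE 0.12). HTB3 (AT2G28720) ran the other way, at 5.88 and 6.15 in cdm1 against 6.18 and 6.30 (-0.22, SE 0.12, adjusted p = 0.455 by limma). HTB3 was thus the 1 gene of the 8 S phase H2B genes with a negative value. The other 7 were above 0, as were 50.9% of all probe sets. Of these 8, 6 had both cdm1 arrays above both wild type arrays, 1 had both below and 1 overlapped. Over all probe sets, both cdm1 arrays lay above in 23.7% and below in 23.6%. The median of the 8 between single arrays was 0.23 and 0.20 for cdm1 replicate 1 (against wild type replicates 1 and 2), and 0.13 and 0.10 for cdm1 replicate 2. Each pairing was positive, with cdm1 replicate 1 farther from wild type. Over all probe sets the same pairings had medians of 0.012 and 0.049 for cdm1 replicate 1, and -0.039 and -0.0055 for cdm1 replicate 2. Part of the gap between the cdm1 replicates is thus seen over all probe sets.

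**Figure D2:**
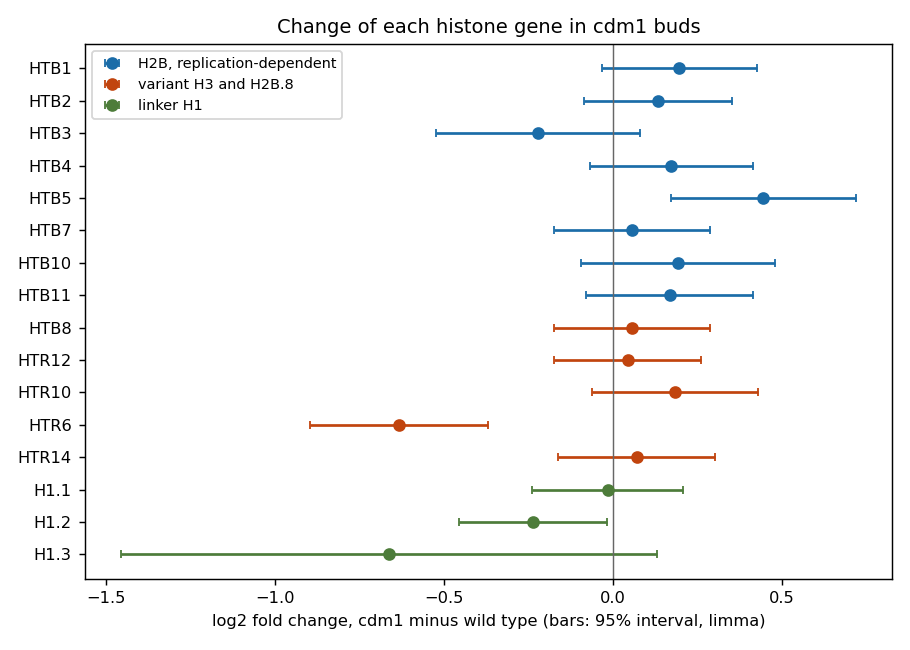
Log2 fold change of each measured histone gene (x axis, cdm1 minus wild type) with its 95% interval from limma (n = 2 arrays per genotype). Of the 16 intervals, those of HTB5, HTR6 and H1.2 exclude 0 before adjustment, and that of H1.3 is the widest.

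H3.1 and H4, the other S phase forms, were read only through shared probe sets, numbered here within each form from the brightest to the dimmest. Since the annotation assigns each set to all genes of its form, no single gene was named from them. The 5 H3.1 probe sets all had positive log2 fold changes, from 0.075 to 0.31, with a median of 0.18. Over all probe sets, 50.9% were above 0. The annotation assigns the 5 sets to the same 5 genes, so they were not counted as separate evidence. The fourth had the largest, reading 10.23 and 10.19 in cdm1 and 9.84 and 9.97 in wild type (0.31, SE 0.096, 1.24-fold, adjusted p = 0.223 by limma). Its groups did not overlap, and it alone of the 14 shared histone probe sets had an unadjusted p under 0.05, against 15.3% of all probe sets. The first, the brightest, read 12.06 and 12.08 against 11.97 and 12.02, and also did not overlap (0.075, SE 0.090). Both cdm1 arrays thus lay above both wild type arrays in 2 of the 5, against 23.7% of all probe sets. In the other 3 a wild type array reached into the range of cdm1. The second, for example, read 11.4 and 11.2 in cdm1 and 11.0 and 11.2 in wild type (0.18, SE 0.12). None of the 5 passed over all probe sets. Without cdm1 replicate 1 or wild type replicate 1 their median was nearer to 0, and it ran from 0.086 to 0.30 over the 4 arrays left out in turn.

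The 5 H4 probe sets disagreed in sign. The first read 12.98 and 12.88 in cdm1 against 12.70 and 12.82 in wild type (0.17, SE 0.10), and the fourth 10.44 and 10.40 against 10.13 and 10.28 (0.22, SE 0.10, adjusted p = 0.370 by limma). In both, the cdm1 arrays lay above the wild type arrays, as they did in the fifth (0.095, SE 0.090) and in 23.7% of all probe sets. The third lay below, at 10.65 and 10.62 in cdm1 against 10.75 and 10.77 (-0.13, SE 0.089), as did 23.6% of all probe sets. The second overlapped, at 11.75 and 11.86 against 11.79 and 11.85, and its sign turned when an array was left out. Since all 5 are assigned to the same 8 genes, the annotation gives no way to say which H4 gene lies behind either direction. None passed over all probe sets.

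H3.3, the variant that is incorporated outside replication, had values opposite in sign to H3.1. Its 3 shared probe sets each read lower on both cdm1 arrays than on both wild type arrays, where 23.6% of all probe sets do so. The first read 12.92 and 13.07 in cdm1 against 13.19 and 13.17 in wild type (-0.19, SE 0.099, adjusted p = 0.438 by limma). The second read 12.80 and 12.78 against 12.87 on both wild type arrays (-0.082, SE 0.089), and the third 12.24 and 12.21 against 12.30 and 12.28 (-0.062, SE 0.089). None reached the threshold, and the largest decrease their 95% intervals allowed was 1.34-fold. The annotation assigns the 3 sets to the same 3 genes, so they were not counted as separate evidence.

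Averaged over probe sets, H3.1 was slightly higher and H3.3 slightly lower in cdm1. The mean of the 5 H3.1 probe sets was 10.93 and 10.84 in cdm1 and 10.63 and 10.78 in wild type. The mean of the 3 H3.3 probe sets was 12.65 and 12.69 in cdm1 against 12.79 and 12.77. The change of the first mean (0.18) exceeded that of the second (-0.11) by 0.29 on the log2 scale. This difference of changes is a description of 4 arrays without a test, and the levels of different probe sets are not comparable with each other.

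**Figure D3:**
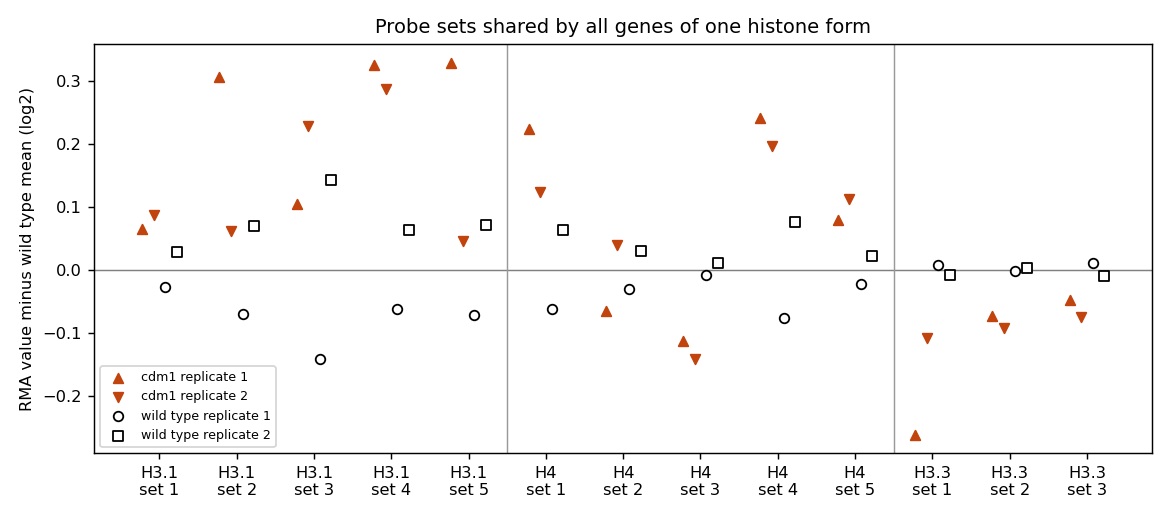
RMA value minus the wild type mean (log2, y axis) of the 13 probe sets that the annotation assigns to all genes of H3.1, H4 or H3.3 (x axis), on each of the 4 arrays. H3.1 probe sets lie above the wild type mean in cdm1, H4 probe sets on both sides of it, and the 3 H3.3 probe sets below it.

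Among the variant forms with a probe set of their own, the centromeric histone gene HTR12 (CENH3, AT1G01370) was the most evenly read. It gave 8.08 and 8.05 in cdm1 and 8.02 and 8.01 in wild type, a log2 difference of 0.043 (SE 0.089, 95% interval -0.17 to 0.26). The other 4 variants lay among the dimmest 33.3% of probe sets (mean below 5.32), as did HTB10, a range in which no value was tested against background. HTR10 (AT1G19890), the histone H3 of male gametes (MGH3), read 4.73 and 4.57 in cdm1 against 4.46 and 4.47 (0.18, SE 0.10, adjusted p = 0.447 by limma). HTB8 (AT1G08170), an H2B known from sperm and dry seeds, read 4.56 and 4.45 in cdm1 and 4.45 on both wild type arrays (0.057, SE 0.094). HTR14 (AT1G75600) was dimmer still and read at most 3.24 on any array (0.070, SE 0.095). HTR14 and HTR6 also share a probe set, which read between 3.02 and 3.17. For HTB8 and HTR14 the groups overlapped, while in HTR10 both cdm1 arrays lay above.

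HTR6 (AT1G13370), an H3 gene outside the H3.1 and H3.3 groups, came nearest to passing. It read 4.01 and 4.22 in cdm1 against 4.74 and 4.77 in wild type, a log2 difference of -0.63 (SE 0.11, adjusted p = 0.0637 by limma). All 4 values are dim, both cdm1 arrays lay well below both wild type arrays, and the difference was larger than the spread within either group. With all 4 arrays its adjusted p ran from 0.0550 (limma, robust variance trend) to 0.471 (ordinary linear model). Without cdm1 replicate 2 the log2 fold change was -0.74, with the spread taken from the wild type pair alone. The probe set shared with HTR14 was at 0.019 (SE 0.098), with overlapping groups.

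H1.1 (AT1G06760), a main somatic H1, read 11.4 and 11.3 in cdm1 and 11.3 and 11.4 in wild type (-0.016, SE 0.092), and its sign turned without cdm1 replicate 2 (0.020) or wild type replicate 2 (0.0011). H1.2 (AT2G30620), the other main H1, read 11.2 on both cdm1 arrays against 11.5 and 11.4, a log2 difference of -0.24 (SE 0.090, 95% interval -0.46 to -0.016, adjusted p = 0.298 by limma). H1.2 was therefore lower on both cdm1 arrays without passing over all probe sets, while H1.1 overlapped. H1.3 (HIS1-3, AT2G18050), the H1 known to be induced by drought and low light, read 5.07 and 6.06 in cdm1 against 6.02 and 6.43 (-0.66, SE 0.32, adjusted p = 0.399 by limma). The low reading came from cdm1 replicate 1, and the groups overlapped. Without that array the log2 fold change was -0.16, and without cdm1 replicate 2 it was -1.16. Either way the spread then came from the wild type pair alone.

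Genes that act with histones in dividing cells were read from lists of known genes. The DNA replication list had 5 measured of 33 genes, all of which are given here. None passed over all probe sets, and each had a positive value, as did 50.9% of all probe sets. ICU2, the catalytic subunit of DNA polymerase alpha, had a log2 difference of 0.35 (SE 0.10, adjusted p = 0.199 by limma) and the helicase subunit gene MCM7 one of 0.29 (SE 0.096). The GINS subunit gene PSF2 was at 0.17, the flap endonuclease gene FEN1 (AT5G26680) at 0.15 and the origin licensing gene CDC6B (AT1G07270) at 0.11. Both cdm1 arrays lay above both wild type arrays in 4 of these 5, all but CDC6B, against 23.7% over all probe sets. The list median was 0.17, as for the S phase H2B genes, but a link between the lists was not tested.

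Of the mitosis list, 3 of 22 genes were measured, the Aurora kinases, and none passed. AUR3 had the smallest p, at -0.33 (SE 0.093, adjusted p = 0.186 by limma), while AUR1 was at 0.16 and AUR2 at 0.077. Of 25 histone chaperone and deposition genes, 4 were measured and none passed. ASF1B, a chaperone that hands H3 and H4 to the assembly factors, read 9.22 and 9.46 in cdm1 against 9.90 and 9.74 (-0.48, SE 0.12, adjusted p = 0.158 by limma). Its close relative ASF1A was at -0.087, the H3.3 remodeller gene ATRX at -0.085 and the H3 chaperone gene NASP (AT4G37210) at 0.026. Of the 4 chaperone values, 3 were thus negative, where 50.9% of all probe sets were above 0. The 1 measured gene of 14 chromatin modifiers, the H2B deubiquitinase gene UBP26, was at -0.031 (SE 0.13). None of the 9 listed G1 to S regulators, such as the E2F factors, had a probe set of its own.

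Markers of the cell types that a bud can hold were read from further lists, and none passed over all probe sets. Of 17 meiocyte markers 6 were measured. Their mean level was 5.44 and 5.48 in cdm1 against 5.81 and 5.63, both cdm1 arrays lay below both wild type arrays in 4 of the 6 (23.6% over all probe sets), SPO11-2 was dim, and the recombination gene PTD (AT1G12790) was at -0.50 (SE 0.096). In all 3 tapetum markers both cdm1 arrays lay above both wild type arrays (23.7% over all probe sets), with a median of 0.18, mean levels of 11.5 and 11.7 against 11.2 and 11.1, and the beta-glucosidase gene ATA27 at 0.94 (SE 0.18). Of 14 late pollen markers 7 were measured, with mean levels of 4.555 and 4.495 in cdm1 against 4.747 and 4.589, and a median of -0.16. They went both ways, from PLIM2a at -0.49 and the MADS-box gene AGL30 at -0.43 (SE 0.089) to its relative AGL104 at 0.22, and 5 of the 7 lay among the dimmest 33.3% of probe sets. The 3 measured of 12 green tissue markers had a median of 0.058 (LHCB4.2 at 0.085), and the 1 measured meristem marker of 9, CLV3, was at 0.037 and dim. No male germline marker of 9 had a probe set of its own. The part of these marker shifts in the histone values was not tested.

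**Figure D4:**
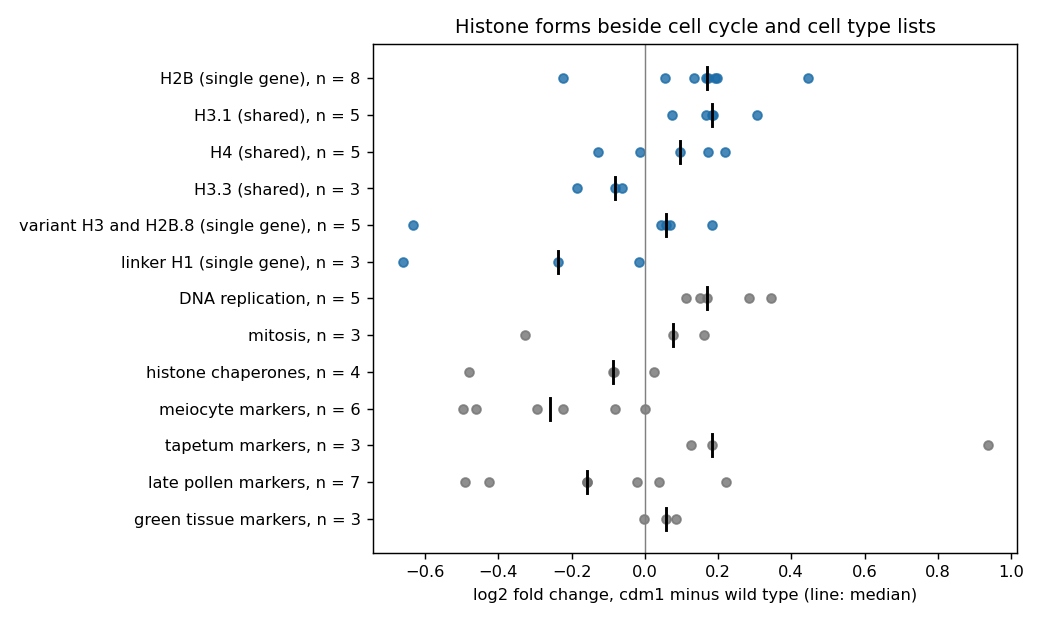
Log2 fold change (x axis, cdm1 minus wild type) of measured members (points) of the histone forms and of cell cycle and cell type lists (y axis). The line is the median. CLV3, UBP26 and the probe set of HTR6 and HTR14 are not shown. The medians were 0.17 for H2B, 0.18 for H3.1, 0.095 for H4 and 0.057 for the variant genes with a probe set of their own. They were 0.17 for DNA replication, 0.077 for mitosis, 0.18 for tapetum and 0.058 for green tissue. Those of H3.3, H1, the chaperones, the meiocyte and the late pollen markers lay below 0.

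Some histone genes lie near each other in the genome. In the gene order of the TAIR10.1 annotation, each listed histone gene was compared with the next one only. Of these consecutive pairs, 11 had fewer than 10 protein-coding genes between them. Of these 11 pairs, 4 were direct neighbours: HTR4 with HTR5 (H3.3, chromosome 4), HTR13 with HTR9 (H3.1, chromosome 5), HTR11 with HTR1 (chromosome 5) and HTA12 with HTB10 (chromosome 5). Of the measured genes, HTB1, HTB3 and HTB4 each form 1 of the 11 pairs with an H4 gene, and their log2 fold changes were 0.20, -0.22 and 0.17. HTB11 (0.17) is paired with HTB9, which is itself paired with an H4 gene. In none of the 11 pairs did both genes have a probe set of their own, so neighbours could not be compared with each other.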

How the data were processed

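Total RNA of unopened flower buds was labelled and hybridised to Affymetrix arrays. The deposited table holds log2 expression values of the authors, 22746 probe sets on 4 arrays. Per the submitters' processing notes, RMA and affy were used. No version or build is given. RMA gives the arrays similar distributions and shrinks fold changes at low signal. The range of the values (2.64 to 14.0) shows the log2 scale. No detection calls, scan dates or scanner files were used, so background and batch were not tested. Precision is limited by the number of arrays.

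Of the probe sets, the platform annotation tied 13513 to 1 gene and 503 to several, leaving 8730 unlisted. Gene records were matched to TAIR10.1 loci by gene ID. No probe set combined a histone gene of the set with another gene. Log2 fold changes (cdm1 minus wild type) came from limma 3.58.1 in R 4.3.3 with genotype as the only term, empirical Bayes moderation, two-sided tests and Benjamini-Hochberg adjustment over all probe sets, threshold 0.05. The step was tested on simulated data, with changes larger than those of any histone gene here. Smaller changes were not simulated, so that test does not show whether they could be called. Every measured histone gene was named. From each other list the gene with the smallest p was named, and for the replication, mitosis and chaperone lists all measured genes. That choice, and naming A9, AMS, SPO11-2, PLIM2a and AGL104, was made after their values were seen. S phase (replication-dependent) forms were H3.1, H4, canonical H2A and H2B other than HTB8, and H1 was kept apart. This grouping came from general knowledge of the forms and was not checked for the single H2B genes. The members and lists were chosen with earlier results of these data known. Replicate numbers were not taken as pairs: same-numbered arrays deviated from their group means with a correlation of -0.066.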

Additional observations from a re-analysis of the deposited data

How the results depend on the processing

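Results were recomputed after median centring, after another quantile normalisation, without the dimmest 33.3% of probe sets, with a variance trend, with and without robust estimation, with ordinary linear-model p-values, with the replicate number as a block, without probe sets marked as shared, and without each array in turn, where the spread of a lone array is taken from the other genotype. The count of called probe sets was 465 with robust estimation, 1 with ordinary p-values (2261 at an unadjusted p of 0.05) and 0 with the replicate block in limma (3110 at an unadjusted p of 0.05). The block leaves 1 residual degree of freedom. Leaving out 1 array gave 0 to 1040 calls. The cause was not tested. Histone genes gave 0 calls under each setting with all 4 arrays. At an unadjusted p of 0.05 they gave 2 to 4 of 16, where 2261 to 3670 of all probe sets did. For fits with 1 array left out, histone genes are given by effect size. HTR6 and H1.3 were at -0.74 and -1.16 without cdm1 replicate 2. The shared histone probe sets gave 0 calls under each setting with all 4 arrays. The setting without probe sets marked as shared went by the mark in the probe set name. No H3.1 or H3.3 probe set carries that mark, so all of them stayed in.

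The S phase median of 0.17 ran from 0.14 to 0.18 over the other settings and from 0.10 to 0.24 with 1 array left out. It was also 0.17 in 2 settings chosen after seeing the data, with the shared H3.1 and H4 probe sets added and with these in place of H2B. Taken apart, the median was 0.18 for the H3.1 probe sets and 0.095 for the H4 probe sets. The H4 median was 0.041 without probe sets marked as shared and ran from 0.073 to 0.12 with 1 array left out. Leaving out H2B alone could not give a value, since no other S phase gene has a probe set of its own. The variant median of 0.057 ran from 0.011 to 0.11 with 1 array left out. With the shared H3.3 probe sets added, also chosen after seeing the data, it was -0.0092, and with CENH3 as the 1 variant left it was 0.043. Signs turned with 1 array left out for H1.1 (-0.052 to 0.020), H4 probe set 2 (-0.066 to 0.038), the probe set of HTR6 and HTR14 (-0.052 to 0.091), UBP26 (-0.16 to 0.097) and CLV3 (-0.027 to 0.10). ATA27 passed with robust estimation (adjusted p = 0.0396 by limma) and without cdm1 replicate 1 (adjusted p = 0.0383 by limma). With all arrays, 1.36-fold (HTB5) and 1.55-fold (HTR6) did not pass.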
